A study of Mus musculus with 16 samples.

Results

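Fatty acid synthesis and desaturation in the injured spinal cord was described by 10 genes, Fasn, Acaca, Scd1, Scd2, Elovl1, Elovl5, Elovl6, Elovl7, Fads1 and Fads2, out of 24411 gene symbols with deposited counts and TPM (a transcript level scaled for gene length and library size). They were taken by symbol and not by a rule on measured values, but with earlier results of these data known. All 10 exceeded a group mean of 1 TPM in some condition, as 16091 genes did, and had at least 10 counts in every mouse. RNA came from a 5 mm section of mid-thoracic spinal cord of 16 female C57BL/6J mice. The SCI + Atorvastatin group (n = 7) and the SCI + Vehicle group (n = 7) had a lateral compression injury to 0.25 mm at 12 wk of age under xylazine and ketamine, and daily treatment from 2 wk post-injury for 4 wk. Atorvastatin was given at 10 mg/kg in a mixture of DMSO, polyethylene glycol, Tween and saline, the SCI + Vehicle mice received that mixture alone, and tissue was taken at 6 wk post-injury. The Uninjured Control group (n = 2) is described with no sham surgery, anaesthetic or vehicle. The labels give these mice a starting age of 12 wk, as for the SCI mice, but the study's methods give them a younger age at tissue collection. In comparisons with this group the injury, the surgery, the vehicle and age therefore cannot be told apart.

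Fatty acids are built in the cytosol by acetyl-CoA carboxylase, which makes malonyl-CoA, and by fatty acid synthase, which joins these units into palmitate. Elongases of the ELOVL family then lengthen the chain, and desaturases add double bonds, the SCD enzymes to saturated chains and the FADS enzymes to polyunsaturated ones. In the spinal cord much of this product goes into myelin, which oligodendrocytes make. Transcription of many of the genes is driven by SREBP-1c (Srebf1) and the liver X receptors, and statins act on the neighbouring sterol pathway by blocking HMG-CoA reductase.

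Promoter sequence in RefSeq (build GRCm38.p6) was at hand for 7 of the 10 genes. It is shown for Fasn, the enzyme that makes palmitate, and for Elovl1 and Elovl7, the elongases with the largest fold changes between SCI + Vehicle and Uninjured Control mice, which went in opposite directions. Each run holds the 250 bases before the transcription start, 5′ to 3′ on the gene's strand, and capitals mark matches on either strand to the CCAAT box (CCAAT) or the GC box (GGGCGG).
Fasn, chr11:120824548-120824797, minus strand: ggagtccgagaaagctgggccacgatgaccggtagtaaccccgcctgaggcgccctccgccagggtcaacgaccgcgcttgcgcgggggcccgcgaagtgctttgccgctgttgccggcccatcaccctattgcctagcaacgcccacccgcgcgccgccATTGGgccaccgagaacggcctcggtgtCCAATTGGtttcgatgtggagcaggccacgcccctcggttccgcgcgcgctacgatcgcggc
Elovl1, chr4:118427843-118428092, plus strand: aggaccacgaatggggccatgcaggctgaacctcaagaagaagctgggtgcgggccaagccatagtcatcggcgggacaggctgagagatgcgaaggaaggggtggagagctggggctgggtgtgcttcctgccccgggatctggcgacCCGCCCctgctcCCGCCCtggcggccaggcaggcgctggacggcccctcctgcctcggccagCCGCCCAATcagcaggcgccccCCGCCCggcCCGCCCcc
Elovl7, chr13:108214154-108214403, plus strand: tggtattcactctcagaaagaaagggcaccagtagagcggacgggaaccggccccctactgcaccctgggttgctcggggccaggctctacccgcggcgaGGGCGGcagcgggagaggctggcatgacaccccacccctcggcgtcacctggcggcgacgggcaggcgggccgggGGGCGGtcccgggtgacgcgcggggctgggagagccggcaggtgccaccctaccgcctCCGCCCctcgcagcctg
The Fasn window held 3 matches to the CCAAT box and none to the GC box, the Elovl1 window held 1 and 5, with 1 GC box overlapping the CCAAT box, and the Elovl7 window held 0 and 3. The CCAAT box was found in 33.8% and the GC box in 32.7% of the 32851 promoter windows of this length. A sterol regulatory element (TCACNCCAC) was in 1.05% of all windows, an E-box (CACGTG) in 6.02% and the DR4 repeat of liver X receptors in 0.0152%. None of these 3 was found in the windows shown, and among all 8 windows of the 7 genes the E-box was found in 1, that of Elovl5. A match is a description of the letters and not a binding site.

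Total counts on genes ranged from 14823292 to 25579826 per library, and the 10 genes together took 0.302% to 0.366% of them in SCI + Atorvastatin mice, 0.305% to 0.350% in SCI + Vehicle mice, and 0.414% and 0.487% in the Uninjured Control mice. Replicates were labelled as separate mice. The control libraries stood apart: 12732 and 12356 genes had a count in them, against 16399 to 19338 in the SCI libraries, and their counts differed from each other by a chi-square of 205 per gene, against 17.7 to 80.6 for pairs of SCI mice of 1 group. The 10 oligodendrocyte markers had a summed TPM of 13758 to 16558 with atorvastatin, 15033 to 19686 with vehicle, and 13182 and 18567 without injury. Against the controls, 5 of 6 neuronal markers were called lower and 4 of 6 astrocyte markers called higher in both SCI groups, by the threshold given below. The other 2 astrocyte markers had negative log2 fold changes in both comparisons and were not called. Of all genes tested, 9.91% were called lower and 19.9% higher with vehicle, and 14% lower and 24.9% higher with atorvastatin. The 6 microglia or macrophage markers summed to 540 to 750 TPM with atorvastatin, 382 to 621 with vehicle, and 53.2 and 103 without injury. The 7 liver markers summed to 7170 and 1195 TPM in Uninjured Control replicates 1 and 2 and to at most 16.01 in any SCI mouse. In SCI + Atorvastatin replicate 2 the 5 skeletal muscle markers summed to 2508 TPM and the 6 adipose markers to 128, against medians of 13.6 and 5.60 in its group. All 6 adipose markers had 0 counts in both controls. In RNA from whole tissue, fewer cells of a type and less RNA per cell cannot be told apart.

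The levels of the 10 genes spanned a wide range in TPM, and their order was nearly the same in each condition. Scd2, the main stearoyl-CoA desaturase of the brain, was highest with 1099 ± 105 TPM in SCI + Atorvastatin, 1117 ± 136 in SCI + Vehicle (SD, n = 7 each) and 1225 and 1290 in the controls. Scd1, its relative that is prominent in liver and fat, came second with 267 ± 57.7 and 243 ± 20.9 TPM (SD, n = 7 each), and 434 and 364 in the controls. Scd1 and Scd2 together made up 69.9% ± 0.919 of the TPM of the 10 genes with atorvastatin, 70.1% ± 1.54 with vehicle (SD, n = 7 each) and 70.7% and 71.0% in the controls. Fads2 and Fads1, the delta-6 and delta-5 desaturases of polyunsaturated fatty acids, followed in all 3 conditions, and the ranges of Scd1 and Fads2 overlapped with vehicle. Fasn and Elovl5 were the next neighbours and overlapped in every condition, Fasn being the higher in 4 of 7 mice of each SCI group and in 1 of the 2 controls. Acaca, Elovl1 or Elovl6, and Elovl7 came last. Elovl1 and Elovl6 overlapped in every condition and changed places, with Elovl1 the higher in 6 of 7 SCI + Atorvastatin mice and Elovl6 the higher in 5 of 7 SCI + Vehicle mice. Elovl7 was lowest in all 3 conditions, with means of 11.5 ± 2.85 and 11.2 ± 1.83 TPM in the SCI groups (SD, n = 7 each). Among all genes tested, Scd2 lay at the 99.5th percentile in each condition and Elovl7 between the 31.5th and the 36.4th.

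**Figure D1:**
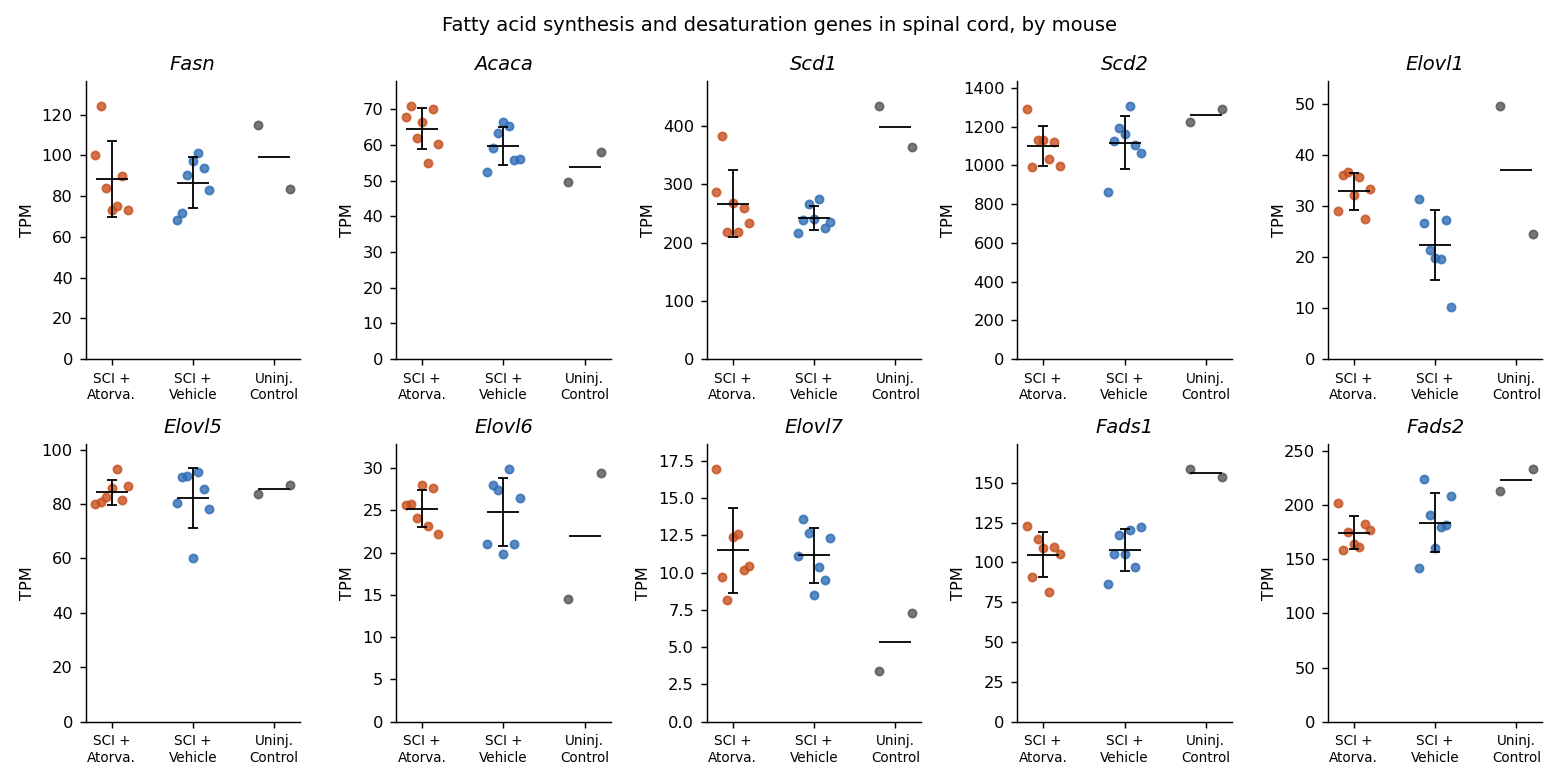
TPM of the 10 genes in each mouse, 1 panel per gene, with the group on the horizontal axis. Points are mice, horizontal bars are group means and error bars are SDs of the SCI groups (n = 7 each), with no error bar for the 2 Uninjured Control mice. Fads1 and Elovl7 of both controls lie outside the range of all 14 SCI mice, Scd1 of SCI + Atorvastatin replicate 2 reaches 384 TPM, and Elovl1 is lowest at 10.3 TPM in SCI + Vehicle replicate 7.

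The comparison of SCI + Vehicle vs. Uninjured Control asked which of the genes differed in the injured cord without the drug. Desaturase transcripts were lower after SCI: Scd1, Scd2, Fads1 and Fads2 were all called downregulated. Elovl1, an elongase of saturated very long chains, was also downregulated, and Elovl7, another elongase of very long chains, was the 1 upregulated gene. In all, 6 of 10 were called, 1 higher and 5 lower, whereas 29.8% of all genes tested were called, 19.9% higher and 9.91% lower. The median log2 fold change of the 10 genes was -0.40, and that of all genes tested was 0.17. Over the genes with at least 10 counts in every mouse, as all 10 had, these medians were -0.42 and -0.04, so the background median changed its sign and the gap to it fell from -0.58 to -0.38. A gene was called at a Benjamini-Hochberg adjusted p below 0.05 in edgeR's quasi-likelihood test on TMM-normalized counts and a change of more than 25% (absolute log2 fold change above 0.322). The normalized counts (CPM, counts scaled to library size) of the 2 groups did not overlap for 8 of the 10 genes, the exceptions being Fasn and Elovl6, and for 35.6% of all genes tested.

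Scd1 had 217, 239 and 275 TPM at the lowest, the median and the highest of the SCI + Vehicle mice, below both controls at 434 and 364. Its log2 fold change was -0.95 ± 0.110 (SE, adjusted p = 0.000218), a level 0.517 times that of the controls. The higher Scd1 level was that of Uninjured Control replicate 1, which also had the higher liver marker sum, and without this mouse the log2 fold change was -0.70. The part of liver transcripts in the Scd1 level of either control was not tested. Scd2 had 864, 1125 and 1305 TPM against 1225 and 1290, so that the groups overlapped in TPM. In CPM they did not, with 1581 to 2026 CPM after SCI and 2551 and 2319 in the controls, and the log2 fold change was -0.39 ± 0.0939 (SE, adjusted p = 0.0103). The fall of Scd1 was thus accompanied by a smaller one of Scd2, and the Scd1 share of their summed TPM was 17.9% ± 1.07 (SD, n = 7) with vehicle and 26.2% and 22.0% in the controls.

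Fads1 had 86.7, 105 and 122 TPM in SCI + Vehicle mice and 159 and 153 in the controls, without overlap. Its log2 fold change was -0.75 ± 0.115 (SE, adjusted p = 0.000983). Fads2, which catalyses the first step of the same pathway, had 142, 182 and 224 TPM against 213 and 233, and 1 SCI mouse lay above the lower control. The log2 fold change of Fads2 was -0.42 ± 0.135 (SE, adjusted p = 0.0395), close to the threshold, and 6 of the 9 fits that left out 1 mouse lost the call. The part of liver transcripts in the Fads1 and Fads2 levels of the controls was not tested.

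The elongases did not move as a group. Elovl1 had 10.3, 21.4 and 31.3 TPM in SCI + Vehicle mice, while the controls stood at 49.5 and 24.5, so that the second control lay within the SCI range. In CPM the ranges were apart, 9.37 to 23.3 after SCI and 39.5 and 28.1 in the controls, and the log2 fold change was -1.09 ± 0.320 (SE, adjusted p = 0.0263). The number of Elovl1 counts per TPM, relative to that of Scd2 in the same library, varied 1.67-fold between mice and was lowest in control 1 and highest in control 2, so the deposited counts and TPM disagree for this gene. Elovl1 also shares exonic sequence on the opposite strand with Cdc20, at 0 and 8.68 TPM in the controls, and the strand setting of the counting is not given in the sources used here.

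Elovl7 had 8.51, 11.1 and 13.6 TPM in SCI + Vehicle mice and 3.41 and 7.28 in the controls. All 7 SCI mice lay above both controls, and the log2 fold change was 1.15 ± 0.314 (SE, adjusted p = 0.0194). On log2(TPM + 1) the log2 fold change of Elovl7 was 0.99. Its counts per TPM, relative to Scd2, ranged from 1.11 to 1.56 over all mice, with 1.11 and 1.13 in the controls. Elovl5, which elongates polyunsaturated chains, had 60.4, 85.5 and 91.9 TPM against 83.8 and 87.0, and Elovl6, which turns palmitate into stearate, had 19.8, 26.4 and 29.9 against 14.5 and 29.5. Neither was called, with log2 fold changes of -0.35 (adjusted p = 0.105) and -0.07 (adjusted p = 0.822). The 2 Elovl6 levels of the controls bracketed those of all but 1 SCI + Vehicle mouse, and the sign of its log2 fold change turned on TPM, where it was 0.23.

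The 2 genes of the first steps were not called by edgeR, and DESeq2 called Fasn lower. Fasn had 68.4, 90.3 and 101 TPM with vehicle and 115 and 83.3 in the controls, with a log2 fold change of -0.45 ± 0.172 (SE, adjusted p = 0.0708). The higher Fasn level belonged to Uninjured Control replicate 1, the library with the higher liver marker sum, and without it the log2 fold change was -0.07. Liver makes much fatty acid, but the part of the liver transcripts in this value was not tested. Acaca, the cytosolic acetyl-CoA carboxylase, had 52.5, 59.1 and 66.4 TPM against 49.6 and 58.0, with a log2 fold change of 0.18 (adjusted p = 0.258). Of its 50-base words, 30.4% also occur in transcripts of other genes, nearly all of them in Gm5182. Reads of these words fit both genes, and how the deposited counts treat such reads is not given in the sources used here. For Scd1 and Scd2 the share of such words was 4.56% and 3.97%, with other members of the Scd family.

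The fold changes with vehicle depended on the controls. Without Uninjured Control replicate 1, the median log2 fold change of the 10 genes was -0.33, beside 0.34 for all genes tested. Without replicate 2 these medians were -0.47 and 0.31. In each of these fits the other mouse stood alone for its group and was assumed to vary like the SCI mice. With voom and a weight for the spread of each group, Scd1 was the 1 gene called with vehicle, and none was called with atorvastatin. Of all 16091 genes tested, voom called 131 with vehicle and 146 with atorvastatin.

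**Figure D2:**
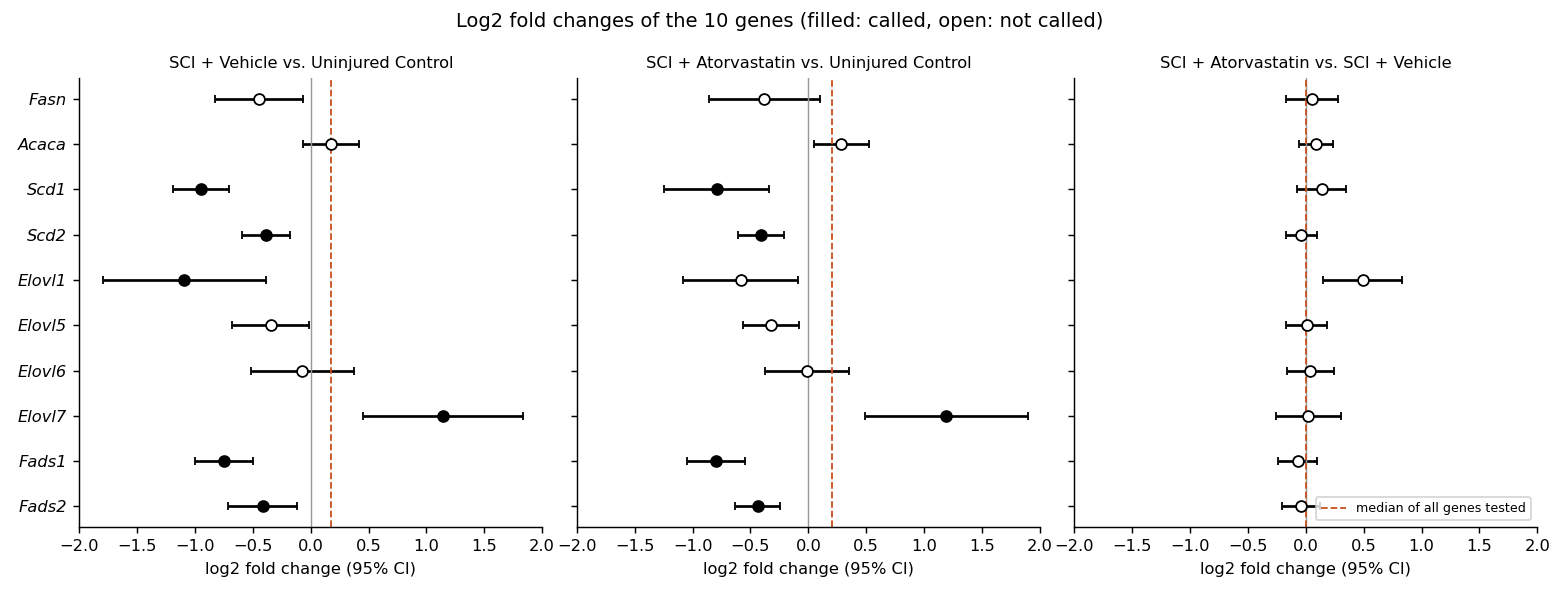
Log2 fold changes of the 10 genes in the 3 comparisons, with 95% confidence intervals from edgeR. Filled points were called and open points were not, the grey line marks 0 and the dashed line the median of all genes tested. With vehicle, 6 genes were called against the Uninjured Control group, with atorvastatin 5, and between the treatments none.

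In SCI + Atorvastatin vs. Uninjured Control, 5 of 10 genes were called, Scd1, Scd2, Fads1 and Fads2 downregulated and Elovl7 upregulated, against 38.9% of all genes tested (24.9% higher, 14% lower). The 4 desaturases and Elovl7 are 5 of the 6 genes called with vehicle, and both comparisons rest on the same 2 controls. The median log2 fold change of the 10 genes was -0.39 and that of all genes 0.21. CPM did not overlap for 7 of the 10 genes and for 44% of all genes.

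Scd1 had 219, 259 and 384 TPM with atorvastatin, and its highest mouse, replicate 2, lay above the second control. The log2 fold change was -0.79 ± 0.203 (SE, adjusted p = 0.0111). The same library held the skeletal muscle and adipose transcripts given above, and without it the log2 fold change of Scd1 was -0.92, while without Uninjured Control replicate 1 it was -0.54. Scd2 had 992, 1121 and 1292 TPM, which overlapped with the controls, and a log2 fold change of -0.41 ± 0.0893 (SE, adjusted p = 0.0048) on counts. Fads1 had 81.5, 109 and 123 TPM, below both controls, and a log2 fold change of -0.80 ± 0.112 (SE, adjusted p = 0.000395). Fads2 had 159, 175 and 202 TPM, also below both, and a log2 fold change of -0.44 ± 0.0866 (SE, adjusted p = 0.00283). All 4 desaturases kept their call in each of the 9 fits that left out 1 mouse.

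Elovl7 had 8.17, 10.5 and 16.9 TPM with atorvastatin, above both controls in all 7 mice, and a log2 fold change of 1.19 ± 0.316 (SE, adjusted p = 0.0131). On log2(TPM + 1) the log2 fold change of Elovl7 was 1.02. Elovl1 had 27.3, 33.3 and 36.6 TPM, between the 2 controls in every mouse. In CPM, which the test used, all 7 mice lay below both controls, with 17.4 to 26.3 against 39.5 and 28.1. The log2 fold change of Elovl1, -0.59 ± 0.222, was not called (SE, adjusted p = 0.0597). Elovl5 had 79.9, 82.6 and 92.9 TPM and an adjusted p of 0.0400, but its log2 fold change of -0.32 was just short of the fold limit. Elovl6 had 22.2, 25.6 and 28.0 TPM and a log2 fold change of -0.01 (adjusted p = 0.983). Fasn had 73.2, 84.1 and 124 TPM, highest in replicate 2, and a log2 fold change of -0.38 (adjusted p = 0.193). Acaca had 55.0, 66.6 and 70.9 TPM and a log2 fold change of 0.28 (adjusted p = 0.0578), and in CPM all 7 mice were above both controls. DESeq2 also called Elovl1 and Elovl5 lower with atorvastatin.

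The size of these fold changes depended on the unit. On log2(TPM + 1), tested with limma, the median of all genes rose from 0.17 to 0.49 with vehicle and from 0.21 to 0.52 with atorvastatin. Relative to the median of all genes, Scd1 was at -1.12 on counts and -1.20 on TPM with vehicle, Scd2 at -0.56 and -0.67, and Fads1 at -0.92 and -1.03. On counts of genes with at least 10 counts in every mouse these were -0.93, -0.36 and -0.72. Elovl7 stood 0.97 above the median on counts, 0.51 above it on TPM and 1.18 above it among those genes. Read against 0, the log2 fold change of Scd2 with vehicle was -0.18 on TPM and was not called (limma adjusted p = 0.352), and Elovl1 and Fads2 also lost their calls there, leaving Scd1, Fads1 and Elovl7. With atorvastatin, Scd2 alone was lost on TPM. On log2(TPM + 1), 3 of the 10 genes were called with vehicle, beside 4452 of the 16091 genes tested. With atorvastatin 4 were called, beside 6316, so both counts, with directions pooled, lay close to the share of all genes. By direction, 2 of the 10 were called lower with vehicle, beside 689 of all genes, and 3 with atorvastatin, beside 1238. In each comparison 1 was called higher, beside 3763 and 5078 of all genes.

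**Figure D3:**
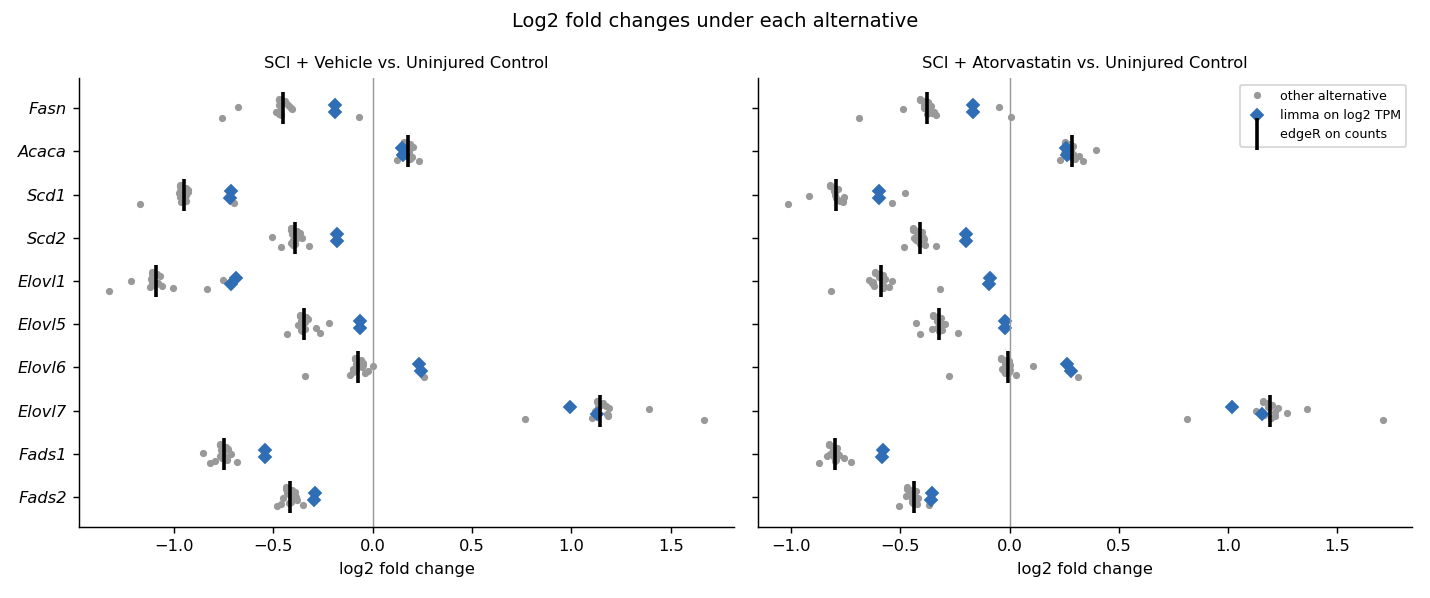
Log2 fold changes against the Uninjured Control group under each alternative, 1 row per gene. Black bars are edgeR on counts, blue diamonds limma on log2 TPM with both pseudocounts, and grey points the other alternatives, each left-out mouse included. Elovl6 lies on both sides of 0, Fasn with atorvastatin crosses 0 in 1 fit that left out a mouse, and the other genes keep their direction throughout.

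The comparison of SCI + Atorvastatin vs. SCI + Vehicle asked whether delayed atorvastatin changed these genes in the injured cord. None of the 10 genes was called at an unadjusted p below 0.001 and a change of more than 25% by edgeR, as 0.106% of all genes tested were, and none was called by DESeq2 or limma. Of the 10, 1 had an unadjusted p below 0.05 in edgeR, against 7.03% of all genes. The groups overlapped for all 10 genes in CPM, whereas 0.087% of all genes did not overlap.

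That 1 gene was Elovl1. Its TPM of 27.3 to 36.6 with atorvastatin compares with 10.3 to 31.3 with vehicle, and 5 of the 7 treated mice lay above every vehicle mouse. In CPM, which the test used, 3 of the 7 did. The log2 fold change was 0.49 (95% confidence interval 0.15 to 0.83, unadjusted p = 0.00728, adjusted p = 0.680 in edgeR), which does not pass the correction over all genes. Leaving out each mouse in turn gave values of 0.39 to 0.61, and without SCI + Vehicle replicate 1, the vehicle mouse with the highest Elovl1, the gene was called.

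The confidence intervals of the other 9 genes all contained 0. For Scd2 the log2 fold change was -0.04 (95% confidence interval -0.17 to 0.09), for Scd1 0.14 (-0.08 to 0.35), for Fasn 0.05 (-0.18 to 0.28) and for Acaca 0.09 (-0.06 to 0.23). The desaturases Fads1 and Fads2 gave -0.07 (-0.24 to 0.10) and -0.04 (-0.21 to 0.12). The elongases Elovl5, Elovl6 and Elovl7 gave 0.01 (-0.17 to 0.19), 0.04 (-0.16 to 0.24) and 0.02 (-0.26 to 0.30). Differences beyond these bounds are not covered by the intervals, and smaller ones could not be detected with these mice.

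Ratios of related enzymes within a library, which do not depend on how libraries are scaled to each other, were compared for 4 pairs in the 3 comparisons, 12 exact two-sided permutation tests in all. With 7 mice against 2, no p below 0.0556 can be reached. The Scd1 to Scd2 ratio was lower in all SCI + Vehicle mice than in both controls, with a log2 difference of -0.53 (exact permutation p = 0.0556, adjusted p = 0.222). With atorvastatin the difference was -0.40 (exact permutation p = 0.167), and replicate 2 lay above both controls. The Elovl7 to Elovl1 ratio was higher in all SCI + Vehicle mice than in both controls, by 1.84 on the log2 scale (exact permutation p = 0.0556, adjusted p = 0.222). The controls themselves stood far apart, at -3.82 and -1.74, and leaving out 1 mouse gave differences of 0.80 to 2.88. The counts and TPM of Elovl1 also disagree between these controls, as given above. The same ratio was lower with atorvastatin than with vehicle by -0.59 (exact permutation p = 0.0478, adjusted p = 0.222). The Fads2 to Fads1 ratio differed by 0.25 and 0.23 from the controls (exact permutation p = 0.111 in both), and the Elovl6 to Elovl5 ratio by 0.31 and 0.30 (exact permutation p = 0.444 and 0.389). After adjustment over the 12 tests none passed 0.05.

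**Figure D4:**
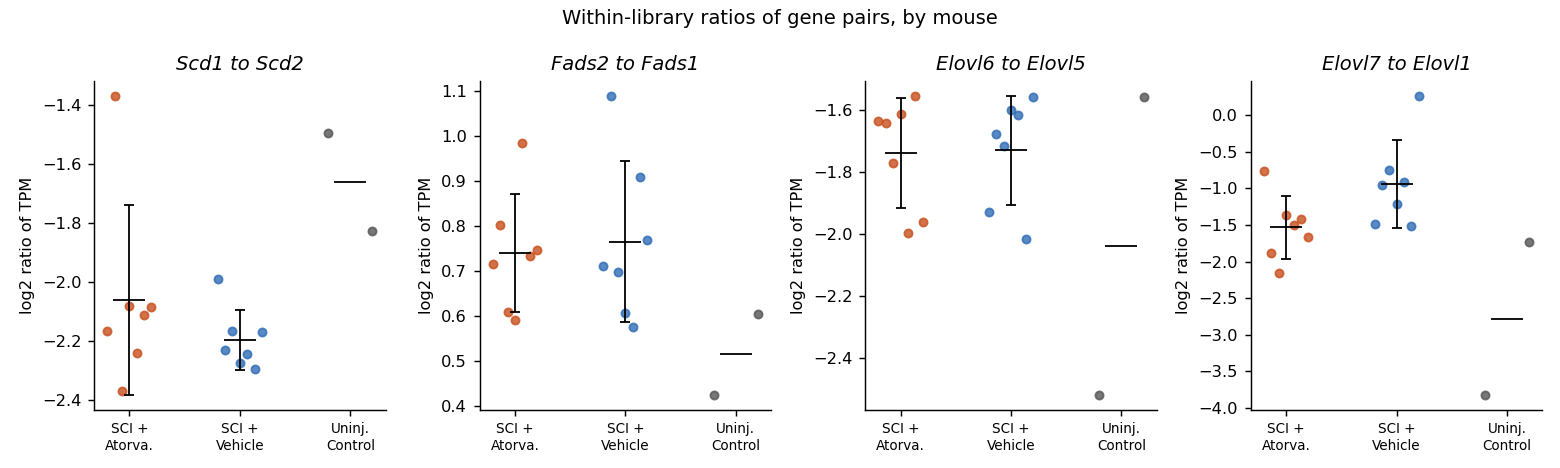
Log2 ratios of TPM for 4 pairs of related enzymes in each mouse, with the group on the horizontal axis. Points are mice, horizontal bars are means and error bars are SDs of the SCI groups (n = 7 each). The Scd1 to Scd2 ratio of all SCI + Vehicle mice lies below both controls, while SCI + Atorvastatin replicate 2 lies above them.

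Whether the genes varied together from mouse to mouse was examined over the 14 SCI mice after removing each group's mean from log2(CPM + 1). Of the 45 pairs, 24 had a correlation above 0, the median Pearson's r was 0.02, and 8 had an unadjusted permutation p below 0.05. None passed 0.05 after adjustment. The highest correlation was that of Fasn and Scd1 (r = 0.74, permutation p = 0.0187, adjusted p = 0.231, rho = 0.54, permutation p = 0.0434), which fell to 0.45 without the 2 mice farthest from the median Fasn level and to 0.32 without SCI + Atorvastatin replicate 2 alone. The lowest was that of Acaca and Elovl5 (r = -0.74, permutation p = 0.00793, adjusted p = 0.178, rho = -0.67, permutation p = 0.0110), which was -0.63 without 2 such mice. Elovl1 and Fads1 also ran against each other (r = -0.71, permutation p = 0.00736, adjusted p = 0.178, rho = -0.62, permutation p = 0.0273), and this was -0.42 without SCI + Vehicle replicates 1 and 7.

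Each gene was also set beside the mean of the 10 oligodendrocyte markers. Fads2 followed that mean (r = 0.78, permutation p = 0.00096, adjusted p over the 10 genes 0.0096, rho = 0.75, permutation p = 0.00478, adjusted p = 0.0478), with r = 0.67 without the 2 mice farthest from the median. The other 9 genes had adjusted p-values of at least 0.369. Within groups r was 0.88 with vehicle and 0.49 with atorvastatin. Extending this to all 12 marker lists, a step chosen after the data were seen, gave 120 pairs, of which 10 had an unadjusted p below 0.05 and 0 an adjusted one. In that larger family the adjusted p of Fads2 with oligodendrocyte markers was 0.0804. Elovl1 ran against neuronal markers (r = -0.84, rho = -0.79, permutation p = 0.00134 and 0.00204, adjusted p = 0.0804 and 0.233, r = -0.65 without 2 mice) and with fibroblast markers (r = 0.71, rho = 0.71, permutation p = 0.00913 and 0.00812, adjusted p = 0.219 and 0.244, r = 0.45 without 2 mice). All 5 fibroblast markers had an unadjusted p below 0.05 between the treatments, with a median log2 fold change of 1.04, and their part in the Elovl1 values was not tested. Scd1 followed the skeletal muscle markers (r = 0.83, rho = 0.67, permutation p = 0.00466 and 0.0203, adjusted p = 0.170 and 0.304, r = 0.58 without 2 mice), which were highest in SCI + Atorvastatin replicate 2, and the part of that tissue in Scd1 was not tested. With adipose markers, highest in the same mouse, Scd1 had r = 0.81 and rho = 0.31 (permutation p = 0.0755 and 0.281, adjusted p = 0.459 and 0.663, r = 0.17 without 2 mice). Elovl5 followed microglia or macrophage markers (r = 0.70, rho = 0.71, permutation p = 0.00567 and 0.00583, adjusted p = 0.170 and 0.233, r = 0.37 without 2 mice).

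**Figure D5:**
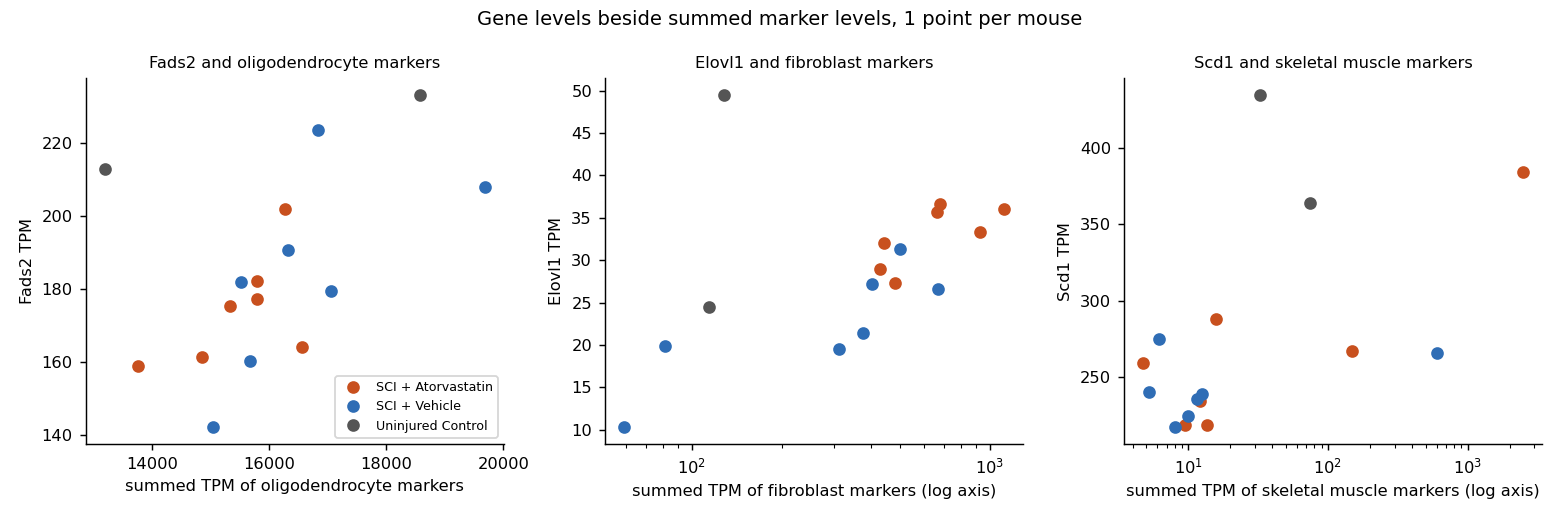
TPM of Fads2, Elovl1 and Scd1 (vertical axes) against the summed TPM of oligodendrocyte, fibroblast and skeletal muscle markers (horizontal axes, the last 2 logarithmic), 1 point per mouse. SCI + Vehicle replicate 7, with the lowest fibroblast sum of 59.1 TPM, has the lowest Elovl1, and SCI + Atorvastatin replicate 2, with a muscle sum of 2508 TPM, has the highest Scd1 of the SCI mice.

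Among the 10857 genes with a mean of at least 10 CPM in the SCI mice, those with the most similar pattern over the 14 mice were listed for each of the 10. Elovl1 had the closest neighbours, Tmem176b (r = 0.95), Mmp12 (r = 0.93), a macrophage metalloproteinase, and Apod (r = 0.92), an apolipoprotein. For Scd1 they were Ankrd23 (r = 0.94), Ldb3 (r = 0.93) and Pde4dip (r = 0.91), of which Ankrd23 and Ldb3 are genes of striated muscle. The 14 mice included SCI + Atorvastatin replicate 2, with the highest Scd1 and the highest muscle marker sum of the SCI mice. The neighbours of Scd1 were not listed again without that mouse. Fads1 was nearest to Hmgb3, Elovl5 to Gbp7 and Scd2 to Rims3, with r from 0.90 to 0.91. Fasn was nearest to Pex7 (r = 0.89), Fads2 to Homez (r = 0.87), Elovl7 to Asrgl1 (r = 0.86), Elovl6 to Hnrnph3 (r = 0.86) and Acaca to Aldh6a1 (r = 0.83). The third neighbour of Elovl6 was Idi1 (r = 0.83), an enzyme of sterol synthesis. These are the highest values of many and are given without a test.

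The rest of the pathway was taken from a list of 46 other genes of fatty acid metabolism, of which 43 passed the filter. With vehicle, 4 were called higher and 13 lower, and with atorvastatin 6 higher and 13 lower, beside the shares of all genes given above, with medians of -0.41 in both comparisons. The 13 lower with vehicle included 3 of 6 acyl-CoA synthetases, 2 of 8 genes of precursor supply, 2 of the 5 other desaturases and elongases tested and 2 of 4 myelin sphingolipid enzymes. Acly, which makes cytosolic acetyl-CoA, fell by 0.68 on the log2 scale with vehicle and by 0.69 with atorvastatin (adjusted p = 0.0019 and 0.000518). Acsl6, an acyl-CoA synthetase of the nervous system, fell by 0.60 and 0.74 (adjusted p = 0.00141 and 0.000144). Insig1, which holds SREBP in the endoplasmic reticulum, fell by 1.21 and 1.12 (adjusted p = 0.00203 and 0.00038). Tecr, the last enzyme of the elongation cycle, fell by 0.86 and 1.02 (adjusted p = 0.00629 and 0.000167), and Fads6 fell by 1.54 and 1.52 (adjusted p = 0.00195 and 0.00149). The part of the liver transcripts of the controls, given above, in these falls was not tested.

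Of the genes called higher, Hacd2, a dehydratase of the elongation cycle, rose by 1.38 on the log2 scale with vehicle and 1.21 with atorvastatin (adjusted p = 0.00178 and 0.00292). Me1, a source of NADPH, rose by 0.42 and 0.47 (adjusted p = 0.0387 and 0.0273). Mlxipl, which encodes ChREBP, and Mcat, a gene of mitochondrial fatty acid synthesis, had no counts in either control. Against the limit of 3 counts per library, the vehicle mice had at least 99.5-fold and the atorvastatin mice at least 114-fold higher Mlxipl, and for Mcat these bounds were 42.7-fold and 46.0-fold. The limit covers counting error only, and both controls had fewer genes with a count than any SCI library, as given above. Srebf1 had log2 fold changes of 0.43 (adjusted p = 0.0926, not called) with vehicle and 0.45 (adjusted p = 0.0148, called) with atorvastatin. Between the treatments its log2 fold change was -0.000883 (95% confidence interval -0.21 to 0.21). None of the 43 genes was called between the treatments by edgeR, and 3 had an unadjusted p below 0.05.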

How the data were processed

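RNA was measured in 16 libraries, made with a stranded total RNA kit. Per the labels, the authors checked reads with FastQC 0.12.1, trimmed them with Trimmomatic 0.38, aligned them with STAR 2.5.4b to mm10 and quantified them with RSEM 1.3.1. The deposited counts are whole numbers per gene, and the step that made them and its strand setting are not given in the sources used here. The deposited TPM values are the authors' own, scaled for length and library.

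From these, genes whose mean exceeded 1 TPM in any group were tested in pairwise fits by edgeR 4.0.16 (R 4.3.3) with TMM normalization, quasi-likelihood tests and Benjamini-Hochberg adjustment. A call against the Uninjured Control group needed an adjusted p below 0.05, and a call between the treatments an unadjusted p below 0.001, each with a change over 25%. Alternatives were DESeq2 1.42.0, other size factors and filters, limma 3.58.1 on log2 TPM with pseudocounts of 1 and 0.1, voom, all groups in 1 fit, a replicate block, and each mouse left out. Ratios and correlations used SciPy 1.17.1 in Python 3.11.15, with a pseudocount of 0.1 for ratios and 100000 permutations for correlations. The scripts were tested on simulated data.

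All 10 genes are named in each comparison, with at most the 4 other fatty acid genes of smallest p per direction and comparison, and the 3 genes of most similar pattern. The genes and lists were chosen with earlier results of these data known.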

Additional observations from a re-analysis of the deposited data

Results flagged for a closer look

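A mouse was singled out when its gap to the nearest other mouse of its group, divided by the range of the group, was above Dixon's critical value of 0.568 for 7 mice. This was tested in 28 groups of 7 and met in 4, where chance gives about 1 in 20. Scd1 in SCI + Atorvastatin replicate 2 stood at 384 TPM, with a gap of 0.581 of the range. The Scd1 to Scd2 TPM ratio of the same mouse was 0.387, with a gap of 0.777. That library had the highest skeletal muscle marker sum, 2508 TPM, and their part in the Scd1 level was not tested. The Scd1 to Scd2 TPM ratio of SCI + Vehicle replicate 1 was 0.251, with a gap of 0.597. The Elovl7 to Elovl1 TPM ratio of SCI + Vehicle replicate 7 was 1.20, with a gap of 0.716, in the library with the lowest Elovl1 and a fibroblast marker sum of 59.1 TPM.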

How the results depend on the processing

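With 2 controls, calls against the Uninjured Control group depended on how the spread was modelled. With vehicle, limma on log2(TPM + 1) and log2(TPM + 0.1) called 3 of the 10 genes each and voom 1, and with atorvastatin they called 4 each and voom 0. The 3 other gene filters, DESeq2, edgeR with DESeq2 scaling, and a joint fit of all groups called 5 to 7 in either comparison. Over all genes, voom called 131, 146 and 8 genes in the 3 comparisons, against 4789, 6260 and 17 in edgeR. DESeq2 called 37 between the treatments, and 1 fit of all groups called 1. On log2(TPM + 1), 3763 genes were higher and 689 lower with vehicle, against 3195 and 1594 on counts, and 5078 and 1238 with atorvastatin, against 4004 and 2256. Among genes above 1 TPM in every group these were 1279 and 1115, and 1806 and 1887. Among genes with at least 10 counts in every mouse they were 1331 and 1531, and 1886 and 2134. Between the treatments these filters left 11 and 10 calls. Without Uninjured Control replicate 1 or 2, 7673 and 7806 genes were called with vehicle and 9707 and 9826 with atorvastatin, and leaving out 1 SCI mouse gave 5 to 32 between the treatments. Between the treatments no alternative called any of the 10 genes, except leaving out SCI + Vehicle replicate 1.

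Same-numbered mice of the SCI groups had deviations correlated from -0.193 to 0.111, with 1 of 7 over 0.1 and 0 matching their own number best, so the numbers do not pair the mice. With the replicate block, 0 of the 10 genes were called in either comparison with the controls and 27 and 0 of all genes, with few residual degrees of freedom, and 8 genes between the treatments.

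Elovl6 turned its sign. With vehicle it was 0.23 and 0.24 on TPM with the pseudocounts 1 and 0.1, and 0.000099 with the block. With atorvastatin it was 0.26 and 0.28 on TPM, 0.00405 with voom and 0.11 with the block. As a ratio of CPM, Fads2 to Fads1 was 0.0341 and Elovl6 to Elovl5 0.0361 between the treatments. The cause was not tested.

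Leaving out 1 SCI mouse gave 4 to 6 calls with vehicle, where 3839 to 4804 of all genes were called. With atorvastatin it gave 5 to 6, where 5582 to 5776 of all genes were called. Between the treatments it gave 0 to 1 calls, and there were 0 to 1 correlated pairs. With any 1 mouse left out, controls included, Fasn with atorvastatin ran from -0.69 to 0.00873 against the controls. Elovl6 ran from -0.34 to 0.26 with vehicle and -0.28 to 0.31 with atorvastatin. The Elovl6 to Elovl5 ratio ran from -0.17 to 0.79 and from -0.18 to 0.78. Between the treatments, Fasn ran from -0.0552 to 0.0906, Elovl5 from -0.0543 to 0.0298, Elovl6 from -0.0114 to 0.0791, Elovl7 from -0.0511 to 0.0961, the Fads2 to Fads1 ratio from -0.0659 to 0.0288 and the Elovl6 to Elovl5 ratio from -0.0566 to 0.0342.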
